A study of Homo sapiens with 12 samples.

Results

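Interferon response and antigen presentation genes were followed through the knockdown and binding data of TDP43 and SRSF3, a pair of RNA-binding proteins. The set holds 35 genes chosen by name, with earlier results of these data known, of 27745 genes in the count table. All 35 passed the filter on low counts among the 15026 genes tested. They are 2 cytosolic RNA sensors, 4 transcription factors, 4 oligoadenylate synthetase genes, 4 IFIT genes, 2 MX GTPase genes, 7 other antiviral effectors, 5 genes of the ISG15 pathway and 7 genes of antigen presentation. The cells were MDA-MB231, an established human triple-negative breast cancer line. Lentivirus delivered a stable short hairpin RNA against SRSF3 (sh-SRSF3), against TDP43 (sh-TDP43) or a control hairpin (sh-control), so all 3 groups carry a viral vector and were selected for it. Each group had 2 RNA-seq libraries, and 1 hairpin per target is named. In other cells of the line, Flag-tagged TDP43 or Flag-tagged SRSF3 was overexpressed and precipitated with a Flag antibody (RNA immunoprecipitation, RIP), with 1 RIP library and 1 input library for each protein. A combined knockdown of both proteins was not analysed here.

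Cells sense viral or misplaced RNA in the cytosol through helicases such as RIG-I, which lead to the secretion of interferons. Type I interferon acts through a complex that holds STAT2 and IRF9 on a promoter element called the interferon-stimulated response element (ISRE), and interferon gamma acts on a different element called GAS. The genes induced in this way encode proteins that bind, cut or modify foreign RNA, the ubiquitin-like protein ISG15, and the machinery that cuts proteins into peptides and shows them on MHC class I. TDP43, encoded by TARDBP, represses cryptic exons in many transcripts, and SRSF3 belongs to the SR family of splicing regulators.

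Counted reads per hairpin library ranged from 34457445 to 38326930. SRSF3 was at 64.1 and 61.7 CPM in the sh-SRSF3 libraries, against 459 and 404 CPM in the sh-control libraries (CPM are counts per 1000000 counted reads after TMM scaling). TARDBP was at 34.4 and 31.3 CPM in the sh-TDP43 libraries, against 168 and 125 CPM in the sh-control libraries. SRSF3 was also lower in sh-TDP43, at 187 and 180.4 CPM (log2 change -1.23, SE 0.10, edgeR adjusted p = 3.05e-07). TARDBP was also lower in sh-SRSF3, at 108 and 102 CPM (-0.48, SE 0.12, edgeR adjusted p = 0.00326), a call lost without sh-control replicate 1 (-0.25). All 6 markers of the line were detected in every library at 218 CPM or more, yet several differed between groups. In sh-TDP43, AXL (-1.91) and CAV1 (-1.65) were lower, and in sh-SRSF3 CD44 was lower (-1.04) and CAV1 higher (0.57). The luminal and epithelial marker CDH1 averaged 15.4 ± 0.46 CPM in sh-SRSF3 (3.59) and 2.61 ± 0.28 CPM in sh-TDP43 (1.04), against 1.27 ± 0.35 CPM in sh-control (SD, n = 2 each), and all these marker changes were called at an edgeR adjusted p under 0.05. Of 5 luminal markers tested, CDH1 was the only one called higher in either knockdown against sh-control. TFF1 was called lower in sh-SRSF3 (-0.65, edgeR adjusted p = 0.0419). The other 3 luminal markers in sh-SRSF3 and the other 4 in sh-TDP43 were not called. The part of these marker differences in the results was not tested. Blood cell markers PTPRC, CD3E, MS4A1 and HBB stayed at or below 2.80 CPM, with HBB at 0 in all 6 libraries, while CD68, which is not limited to blood cells, was at 36.5 to 146 CPM. All 5 blood cell markers that could be tested were lower in sh-SRSF3, and in sh-TDP43 2 were lower and 1, PTPRC, was higher. The 11 blood cell markers of the list summed to 37.7 and 39.2 CPM in sh-SRSF3, 76.6 and 85.0 CPM in sh-TDP43 and 122 and 151 CPM in sh-control, mostly from CD68, and the part of this in the results was not tested. Whether the libraries of a group stem from separate cultures is not said in the labels, and the p-values therefore cover the spread between the sequenced libraries alone, which may be technical. In bulk RNA, fewer cells that express a gene and less of its RNA per cell cannot be told apart.

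Promoters were examined for the elements through which interferon signalling acts. RefSeq promoters (GRCh38.p14, 250 bases before to 50 bases after a gene's start) were found for 28 of the 35 members, and a gene with several starts was counted once if any of them held the letters. The core letters of an ISRE, GAAANNGAAA on either strand, were present in 17 of these 28 members and in 4.38% of 27305 genes with such a promoter. The letters of a GAS element, TTCNNNGAA, which reads the same on both strands, were present in 8 of the 28 and in 9.38% of genes. A stretch of 200 bases before the start is shown for 5 members with 2 ISRE matches each and, for the GAS letters, for IRF1, the transcription factor gene with a large change below. Capitals mark the matched letters, which overlap where matches share bases, and a gene on the minus strand is shown in its own reading direction.
ISG15 (chr1:1013297-1013496, plus strand): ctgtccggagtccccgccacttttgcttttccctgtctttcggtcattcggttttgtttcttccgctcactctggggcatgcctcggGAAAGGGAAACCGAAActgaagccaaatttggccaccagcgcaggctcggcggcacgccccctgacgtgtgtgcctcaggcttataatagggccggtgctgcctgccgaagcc
IFIT1 (chr10:89392423-89392622, plus strand): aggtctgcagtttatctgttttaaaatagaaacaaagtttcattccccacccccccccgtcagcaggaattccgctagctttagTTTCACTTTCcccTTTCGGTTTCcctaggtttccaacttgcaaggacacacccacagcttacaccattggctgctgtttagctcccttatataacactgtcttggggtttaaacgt
OAS3 (chr12:112938274-112938473, plus strand): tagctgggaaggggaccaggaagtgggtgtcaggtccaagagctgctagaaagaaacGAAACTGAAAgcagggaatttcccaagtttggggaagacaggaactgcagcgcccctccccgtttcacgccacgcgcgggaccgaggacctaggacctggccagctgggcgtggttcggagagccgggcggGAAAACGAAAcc
TAP1 (chr6:32853705-32853904, minus strand): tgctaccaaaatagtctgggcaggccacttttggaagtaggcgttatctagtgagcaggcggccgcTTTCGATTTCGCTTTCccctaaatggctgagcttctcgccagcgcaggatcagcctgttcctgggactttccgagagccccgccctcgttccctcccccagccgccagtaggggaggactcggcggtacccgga
B2M (chr15:44711317-44711516, plus strand): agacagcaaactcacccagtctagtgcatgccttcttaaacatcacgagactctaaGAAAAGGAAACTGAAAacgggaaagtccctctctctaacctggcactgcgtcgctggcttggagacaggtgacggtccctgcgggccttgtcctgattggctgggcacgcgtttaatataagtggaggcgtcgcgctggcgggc
IRF1 (chr5:132490774-132490973, minus strand): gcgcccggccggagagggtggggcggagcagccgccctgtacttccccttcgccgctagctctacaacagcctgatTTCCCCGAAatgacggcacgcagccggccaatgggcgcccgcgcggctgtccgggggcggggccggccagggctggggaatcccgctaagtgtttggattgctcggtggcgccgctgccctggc
In ISG15, TAP1 and B2M the ISRE matches overlap in one block, which begins 113, 134 and 144 bases before the start in that order. In IFIT1 they stand 3 bases apart, and in OAS3 one match begins 143 bases and the other 12 bases before the start. A match of letters describes the sequence and is not evidence of a bound site.

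Members also lie close together in the genome (GRCh37 coordinates of the count table). OAS1, OAS3 and OAS2 lie side by side on chromosome 12 between 113344582 and 113449528. The IFIT genes lie on chromosome 10 between 91043451 and 91180758. TAP2, PSMB8, TAP1 and PSMB9 lie on chromosome 6 between 32789610 and 32827362, within the MHC. HERC5 and HERC6 are neighbours on chromosome 4, MX1 and MX2 on chromosome 21, and RSAD2 and CMPK2 overlap head to head on chromosome 2.

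**Figure D1:**
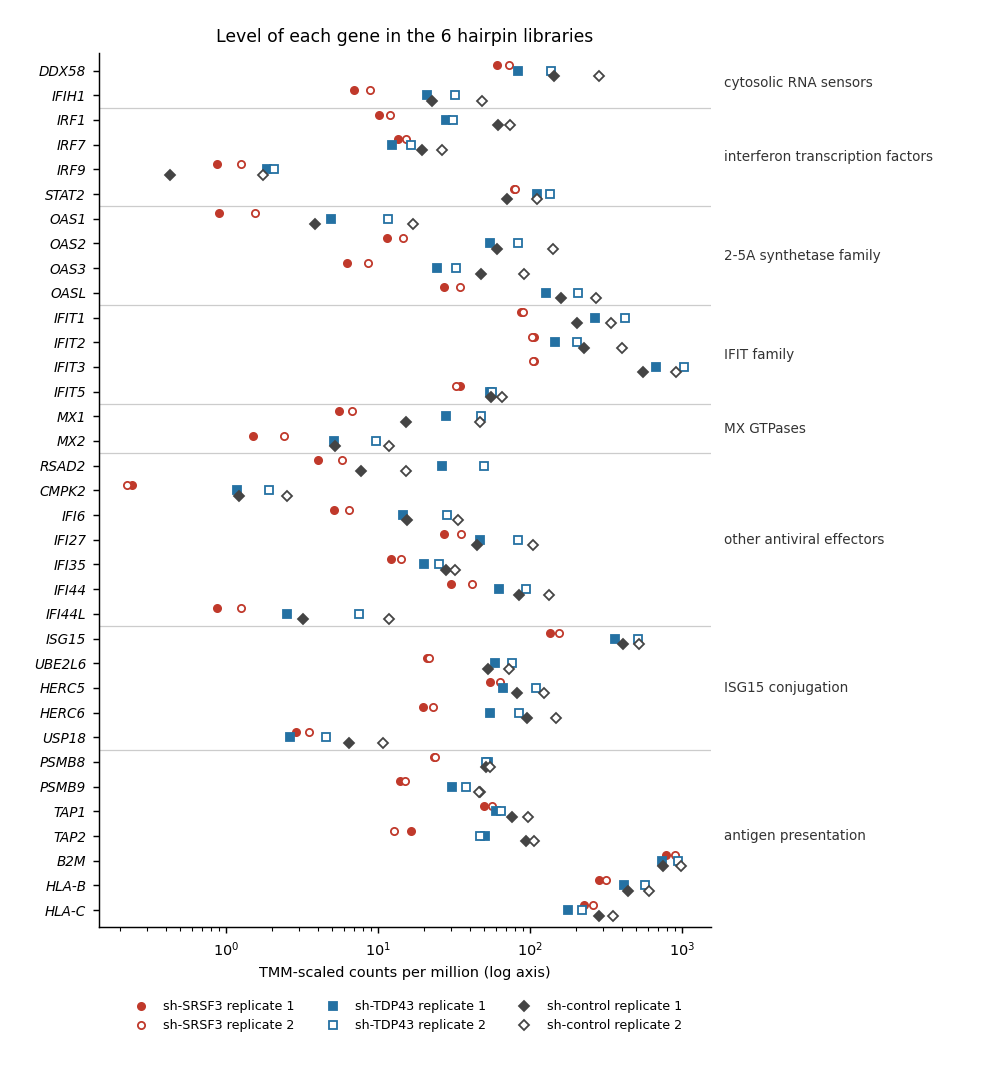
Level of each of the 35 genes in the 6 hairpin libraries, as TMM-scaled CPM on a log axis, grouped by role; filled symbols are replicate 1 and open symbols replicate 2. The sh-SRSF3 libraries (circles) lie left of both sh-control libraries (diamonds) for 32 genes, and sh-control replicate 1 lies left of replicate 2 for 34 genes.

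The control libraries already expressed these genes without any added interferon named in the labels, at very different levels. Per kilobase of exon, the highest level in sh-control was that of ISG15, at 494 ± 87 CPM per kilobase (SD, n = 2). IFIT3 followed at 278 ± 98, HLA-B at 174 ± 38, B2M at 143 ± 28 and HLA-C at 127 ± 19 CPM per kilobase (SD, n = 2 each), and the values from HLA-B to HLA-C lie within about 1 SD of their neighbours. At the low end stood IFI44L at 0.735 ± 0.60, MX2 at 0.654 ± 0.36, CMPK2 at 0.435 ± 0.22 and IRF9 at 0.287 ± 0.25 CPM per kilobase (SD, n = 2 each). The low value of IRF9 rests on 16 to 77 reads per library. Another annotated gene on the same strand overlaps 48.4% of its exon bases, and reads in such stretches were assigned to neither gene.

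The 2 control libraries differed from each other in many of these genes. Replicate 1 was lower than replicate 2 for 34 of 35 members, with a median log2 difference (replicate 1 minus replicate 2) of -0.74, where the median over all 15026 genes was 0.00. The difference was below -0.5 for 22 members, against 9.26% of all genes, and 16 members lay below the level of -0.75 that marks the lowest 5% of genes. OAS1 showed the largest, with 3.87 CPM in replicate 1 and 16.9 CPM in replicate 2 (-2.11). IFI44L (-1.87), IRF9 (-1.89) and MX1 (-1.61) followed a like pattern. ISG15 differed by -0.36 and IRF1 by -0.28. The genes of antigen presentation were among the steadier ones, with differences from -0.45 for HLA-B to 0.03 for PSMB9.

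The same direction was seen within the other groups. The median member difference was -0.21 in sh-SRSF3, with replicate 1 lower for 30 members and a difference below -0.5 for 3 members, against 7.75% of genes. In sh-TDP43 it was -0.59, with replicate 1 lower for 33 members and a difference below -0.5 for 19 members, against 8.65% of genes. Summed over the 35 members, the level was 2276 and 2545 CPM in sh-SRSF3, 3903 and 5451 CPM in sh-TDP43, and 4222 and 6319 CPM in sh-control. The sh-SRSF3 sums lie below all the others, while the sums of sh-TDP43 and sh-control overlap.

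**Figure D2:**
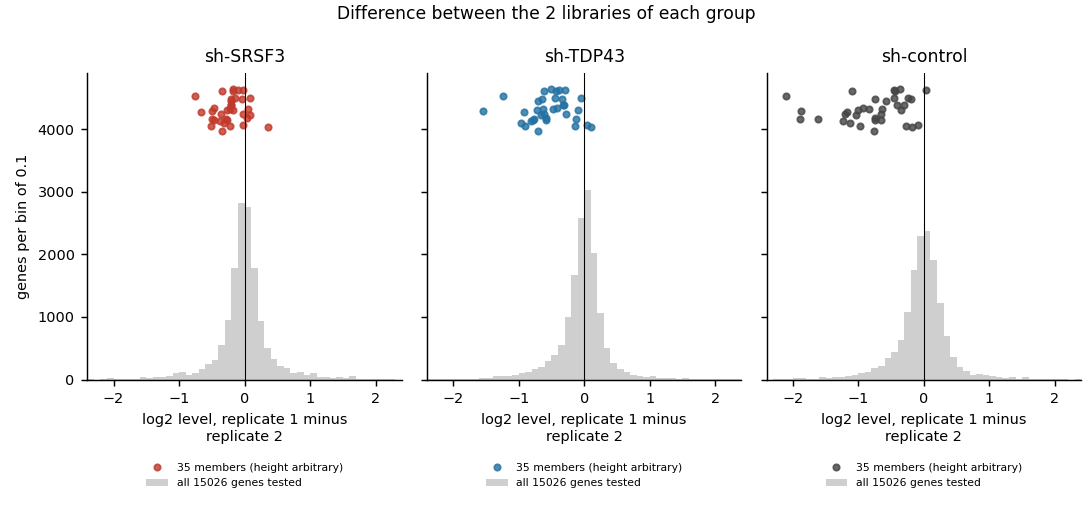
Log2 level of replicate 1 minus replicate 2 within each group, for all genes tested (grey bars, genes per bin of 0.1) and for the 35 members (coloured points, whose height has no meaning). The members' medians are -0.21 in sh-SRSF3, -0.59 in sh-TDP43 and -0.74 in sh-control, left of the centre of all genes.

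SRSF3 knockdown was compared with the control hairpin to ask which RNAs change when SRSF3 is depleted. Nearly the whole set fell. Of 35 members 32 were lower in sh-SRSF3, 0 were higher and 3 were not called, at an edgeR quasi-likelihood adjusted p under 0.05. Among all genes tested, 34.4% were called lower and 66.9% changed in either direction. A fall of at least 2-fold was called for 26 members, against 20.4% of all genes. The median member log2 change was -1.64, and that of all genes was -0.03. In 32 members both sh-SRSF3 libraries lay below both sh-control libraries, which held for 42.6% of all genes. The gap between the groups was wider than the distance between the control libraries for 22 of them. This count describes the members alone, since the share over all genes was not worked out.

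Both RNA sensor genes fell. DDX58, which encodes RIG-I, was at 60.7 and 73.0 CPM in sh-SRSF3, against 144 and 286 CPM in sh-control (log2 change -1.68, SE 0.26, edgeR adjusted p = 5.45e-05). IFIH1, which encodes MDA5, a sensor of long double-stranded RNA, was at 6.97 and 8.84 CPM in sh-SRSF3, against 22.6 and 48.6 CPM in sh-control (-2.17, SE 0.29, edgeR adjusted p = 1.53e-05). The groups do not overlap for either gene, although the control libraries themselves differ about as much as the gap for DDX58.

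Among the transcription factors the pattern was split. IRF1, a factor that interferon gamma induces, was at 10.2 and 12 CPM in sh-SRSF3, against 61.3 and 74.2 CPM in sh-control (-2.61, SE 0.13, edgeR adjusted p = 1.74e-09). IRF7, the factor that amplifies type I interferon production, was at 13.6 and 15.3 CPM in sh-SRSF3, against 19.5 and 26.5 CPM in sh-control (-0.67, SE 0.17, edgeR adjusted p = 0.00365). STAT2, the signalling subunit of the ISRE-binding complex, was at 78.7 and 79.6 CPM in sh-SRSF3, against 70.8 and 111 CPM in sh-control (-0.20, SE 0.16, edgeR adjusted p = 0.282). IRF9, the DNA-binding subunit of that complex, was at 0.871 and 1.25 CPM in sh-SRSF3, against 0.430 and 1.75 CPM in sh-control (-0.04, SE 0.52, edgeR adjusted p = 0.949). The sh-SRSF3 values of STAT2 and IRF9 lie between those of the control libraries.

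The oligoadenylate synthetases, which make the messenger that activates the nuclease RNase L, had the lowest median of the families (-3.02) and fell in 4 of 4 members, with log2 changes of -3.22 to -2.79. OAS3 was at 6.25 and 8.59 CPM in sh-SRSF3, against 47.6 and 90.8 CPM in sh-control (-3.22, SE 0.26, edgeR adjusted p = 1.1e-07). OAS2 was at 11.4 and 14.6 CPM in sh-SRSF3, against 61.1 and 142 CPM in sh-control (-2.96, SE 0.31). OASL, a relative without synthetase activity, was at 27.3 and 34.7 CPM in sh-SRSF3, against 159.7 and 270.2 CPM in sh-control (-2.79, SE 0.24). Every sh-SRSF3 library lay several-fold below the lower control library in these 3 genes. OAS1 was at 0.901 and 1.55 CPM in sh-SRSF3, against 3.87 and 16.9 CPM in sh-control (-3.07, SE 0.59), a gap smaller than the distance between the controls.

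All 4 IFIT genes fell, from -2.79 for IFIT3 to -0.84 for IFIT5. IFIT3 was at 107 and 105 CPM in sh-SRSF3, against 550.3 and 916 CPM in sh-control (-2.79, SE 0.21, edgeR adjusted p = 6.34e-08). IFIT1 was at 86.6 and 89.3 CPM in sh-SRSF3, against 205 and 342 CPM in sh-control (-1.64, SE 0.21). The sh-SRSF3 libraries agree closely while the controls are spread. IFIT2 changed by -1.59 (SE 0.21).

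The MX GTPases, which trap viral nucleoproteins and capsids, fell as well, MX1 (log2 change -2.33) and MX2 (-2.12), with an SE of 0.39 each. MX1 was at 5.56 and 6.76 CPM in sh-SRSF3, against 15.3 and 46.7 CPM in sh-control. All 7 other effectors fell, with log2 changes of -3.0 to -1.19. CMPK2, a mitochondrial nucleotide kinase gene, had 8 and 8 reads in sh-SRSF3 and a change of -3.0 (SE 0.54). RSAD2, which encodes viperin, was at 4.0 and 5.76 CPM in sh-SRSF3, against 7.72 and 15.3 CPM in sh-control (-1.23, SE 0.32, edgeR adjusted p = 0.00391). IFI6 changed by -2.08, IFI44L by -2.82, IFI44 by -1.60, IFI27 by -1.26 and IFI35 by -1.19.

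Each gene of the ISG15 pathway fell, 5 of 5. ISG15 itself was at 136 and 154 CPM in sh-SRSF3, against 407 and 523 CPM in sh-control (-1.68, SE 0.15, edgeR adjusted p = 3.7e-07). UBE2L6, the conjugating enzyme for ISG15, was at 21.1 and 21.6 CPM in sh-SRSF3, against 52.8 and 72.9 CPM in sh-control (-1.56, SE 0.15). HERC5, the main human ligase, changed by -0.80 (SE 0.20) and its relative HERC6 by -2.49 (SE 0.21). USP18, the protease that removes ISG15 and restrains the interferon receptor, changed by -1.43 (SE 0.30).

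Antigen presentation was uneven, with 6 of 7 members lower and a median of -0.79. TAP2, one subunit of the peptide transporter, was at 16.5 and 12.8 CPM in sh-SRSF3, against 94.1 and 106 CPM in sh-control (-2.77, SE 0.13, edgeR adjusted p = 7.89e-10). TAP1, the other subunit, was at 49.7 and 56.2 CPM in sh-SRSF3, against 76.2 and 97.2 CPM in sh-control (-0.71, SE 0.12). For TAP2, 32.3% of the exon bases overlap another annotated gene. The immunoproteasome subunit PSMB9 was at 14.0 and 15.0 CPM in sh-SRSF3, against 47.2 and 46.3 CPM in sh-control (-1.69, SE 0.12), and PSMB8 was at 23.3 and 23.6 CPM, against 51.3 and 54.7 CPM (-1.18, SE 0.10). PSMB8-AS1 overlaps 21.2% of the exon bases of PSMB8, 9.96% of those of TAP1 and 5.66% of those of PSMB9. Both control libraries agree closely in PSMB8 and PSMB9, so these falls are far wider than the control spread.

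The MHC class I chains changed by less than 2-fold. HLA-B was at 286 and 318 CPM in sh-SRSF3, against 443 and 604 CPM in sh-control (-0.79, SE 0.15, edgeR adjusted p = 3.64e-04). HLA-C was at 227 and 260.4 CPM in sh-SRSF3, against 285 and 352 CPM in sh-control (-0.39, SE 0.13, edgeR adjusted p = 0.0141). B2M, the light chain, was at 786 and 901 CPM in sh-SRSF3, against 749 and 992 CPM in sh-control (-0.05, SE 0.14, edgeR adjusted p = 0.781), and its groups overlap. HLA genes are near copies of each other, so their counts depend on how shared reads were placed.

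Of the 32 calls, 27 held under all 11 alternative settings. Without sh-control replicate 2, which is the higher library, the calls of IRF7 (-0.43), RSAD2 (-0.66), IFI27 (-0.52) and HLA-C (-0.23) were lost, leaving 28. HLA-C was also lost without sh-SRSF3 replicate 1 (-0.29), IFI27 and HERC5 were lost under DESeq2, and STAT2 was gained (-0.49) without sh-control replicate 1. Leaving out sh-control replicate 2 moved the fold by over 1.5 times for 9 called members, namely IFIH1 (-1.52), OAS1 (-1.65), OAS2 (-2.23), MX1 (-1.31), MX2 (-1.41), CMPK2 (-2.38), IFI6 (-1.41), IFI27 and IFI44L (-1.59). Leaving out sh-control replicate 1 did so for OAS1 (-3.77), MX1 (-2.92) and IFI44L (-3.47).

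**Figure D3:**
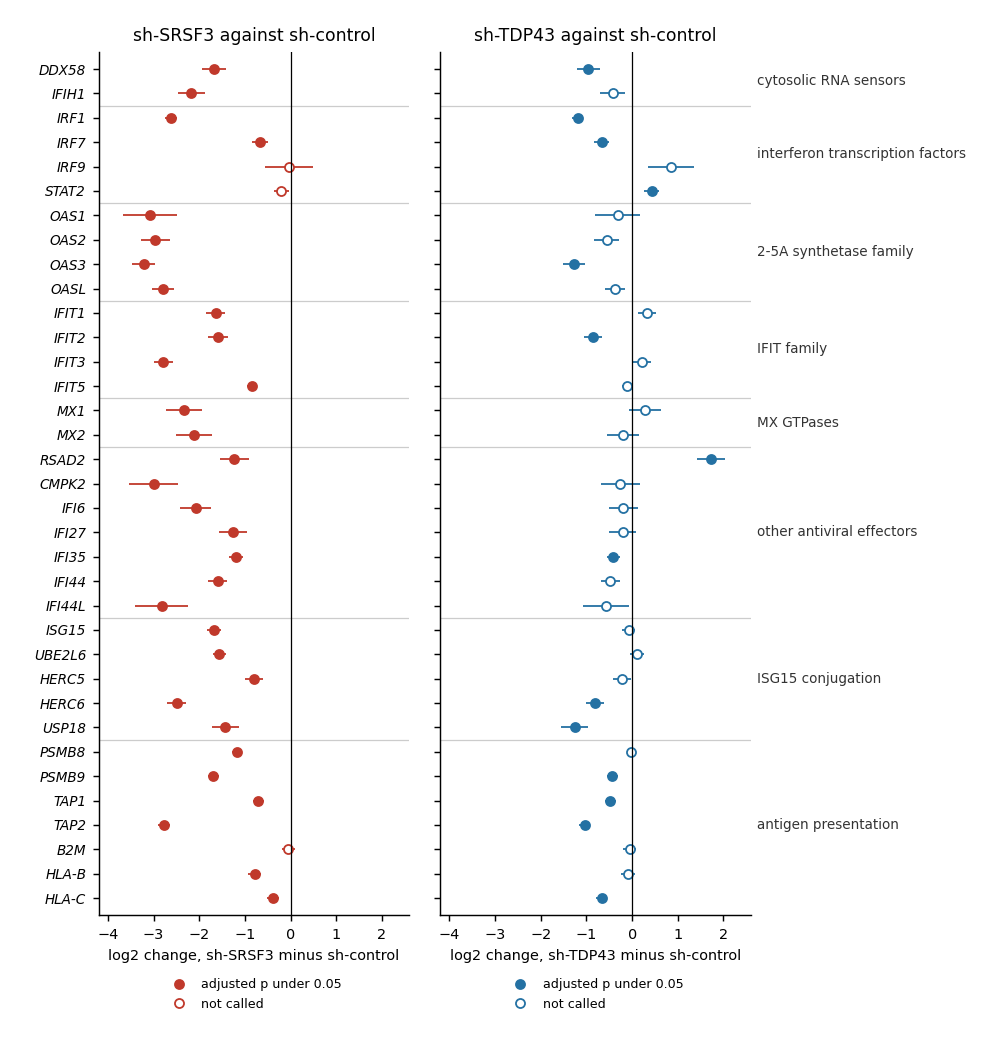
Log2 change of each gene in sh-SRSF3 (left) and in sh-TDP43 (right) against sh-control, with bars for the SE; filled points have an edgeR adjusted p under 0.05 and open points were not called. Of 35 genes, 32 are called lower in sh-SRSF3, while 12 are called lower and 2 higher in sh-TDP43.

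TDP43 knockdown was compared with the same control libraries. Here the set did not move as one. Of 35 members, 12 were lower in sh-TDP43, 2 were higher and 21 were not called, against 24.1% of all genes lower, 20.7% higher and 44.8% in either direction. A fall of at least 2-fold was called for 4 members, against 6.44% of all genes. The median member log2 change was -0.32 and that of all genes was 0.00. With upper-quartile scaling the share of lower genes among all called genes was 42.9%, in place of 53.8% with TMM scaling, and 11 members were lower. In 12 members both sh-TDP43 libraries lay below both sh-control libraries, against 37.0% of all genes. The gap exceeded the distance between the control libraries for 4 of the members, IRF1, PSMB9, TAP2 and HLA-C. For all genes that share was not worked out.

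The members called lower were DDX58, IRF1, IRF7, OAS3, IFIT2, IFI35, HERC6, USP18, PSMB9, TAP1, TAP2 and HLA-C. IRF1 was at 28.2 and 31.1 CPM in sh-TDP43, against 61.3 and 74.2 CPM in sh-control (-1.19, SE 0.12). Its edgeR adjusted p was the smallest of the members in this comparison. OAS3 was at 24.3 and 32.6 CPM in sh-TDP43, against 47.6 and 90.8 CPM in sh-control (-1.28, SE 0.24, edgeR adjusted p = 5.61e-04). USP18 was at 2.63 and 4.57 CPM in sh-TDP43, against 6.40 and 10.8 CPM in sh-control (-1.26, SE 0.29, edgeR adjusted p = 0.00312). TAP2 was at 50.3 and 47.0 CPM in sh-TDP43, against 94.1 and 106 CPM in sh-control (-1.04, SE 0.12), and TAP1 changed by -0.48 (SE 0.12). These groups are separate, and in TAP2 and IRF1 the gap is several times the distance between the control libraries.

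Viperin went the other way. RSAD2 was at 26.5 and 49.8 CPM in sh-TDP43, against 7.72 and 15.3 CPM in sh-control (1.73, SE 0.30, edgeR adjusted p = 3.42e-04). Both sh-TDP43 libraries lie above both control libraries. CMPK2, which lies head to head with RSAD2 on chromosome 2, was at 1.19 and 1.93 CPM in sh-TDP43, against 1.21 and 2.53 CPM in sh-control (-0.26, SE 0.43, edgeR adjusted p = 0.645). STAT2 was at 111 and 135 CPM in sh-TDP43, against 70.8 and 111 CPM in sh-control, with groups that touch (0.43, SE 0.16, edgeR adjusted p = 0.0399).

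For the effectors that were not called, the sh-TDP43 libraries overlapped with the controls. IFIT3 was at 679 and 1023 CPM in sh-TDP43, against 550.3 and 916 CPM in sh-control (0.22, SE 0.20, edgeR adjusted p = 0.403). ISG15 was at 365 and 517 CPM in sh-TDP43, against 407 and 523 CPM in sh-control (-0.08, SE 0.15, edgeR adjusted p = 0.701). MX1 was at 28.1 and 47.8 CPM in sh-TDP43, against 15.3 and 46.7 CPM in sh-control (0.29, SE 0.35, edgeR adjusted p = 0.529). With SEs of this size, changes well under 2-fold were not detectable in MX1.

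MHC class I genes differed from one another in sh-TDP43. HLA-C was at 179 and 221 CPM in sh-TDP43, against 285 and 352 CPM in sh-control (-0.67, SE 0.13, edgeR adjusted p = 6.35e-04). HLA-B was at 416 and 567 CPM in sh-TDP43, against 443 and 604 CPM in sh-control (-0.09, SE 0.15, edgeR adjusted p = 0.65). B2M was at 744 and 935 CPM in sh-TDP43, against 749 and 992 CPM in sh-control (-0.05, SE 0.14, edgeR adjusted p = 0.785). Only the HLA-C groups are separate among these 3 genes.

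Which library stood for the control decided many of these calls. A lone library is assumed to vary like those of the other groups in these fits. Against sh-control replicate 1 alone, 8 members were lower and 7 higher, with IRF9 (2.17), OAS1 (1.10), IFIT1 (0.74), IFIT3 (0.62) and MX1 (1.3) gained as higher. The calls of DDX58 (-0.39), IRF7 (-0.44), IFI35 (-0.31) and HERC6 (-0.46) were lost there. Against sh-control replicate 2 alone, 19 members were lower and 1 was higher, with IFIH1 (-0.88), OAS1 (-1.03), OAS2 (-1.05), OASL (-0.70), IFI27 (-0.70), IFI44 (-0.77) and IFI44L (-1.24) gained as lower and STAT2 (0.14) lost. Without sh-TDP43 replicate 1, 6 members were lower, and without sh-TDP43 replicate 2, 15 were. Without sh-TDP43 replicate 1 the calls of DDX58, IRF7, IFIT2, IFI35, HERC6 and PSMB9 were lost. The falls of IRF1, OAS3, USP18, TAP1, TAP2 and HLA-C and the rise of RSAD2 held under all 11 alternatives.

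**Figure D4:**
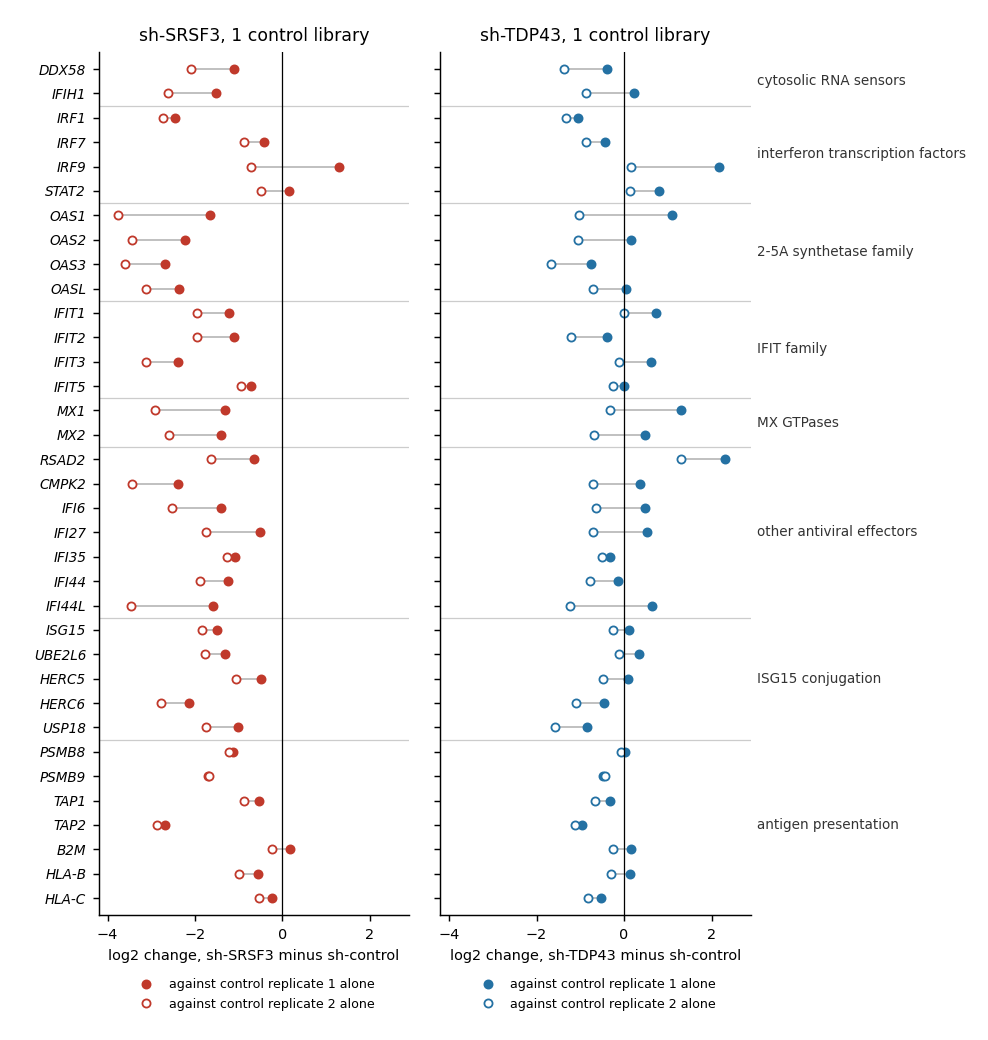
Log2 change of each gene in sh-SRSF3 (left) and sh-TDP43 (right) when 1 control library is used, replicate 1 (filled) or replicate 2 (open). In sh-SRSF3 the points of all genes but IRF9, STAT2 and B2M stay below 0, while in sh-TDP43 many lines cross 0, as that of OAS1 from -1.03 to 1.10.

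The knockdowns were also compared directly, which tests the difference between them without the control libraries as reference. Of 35 members, 29 were lower in sh-SRSF3 than in sh-TDP43 and 0 were higher, against 33.5% of all genes lower and 65.5% changed in either direction. A difference of at least 2-fold was called for 22 members, against 20.0% of all genes. The median member change was -1.41, and that of all genes was -0.04. Upper-quartile scaling moved the share of lower genes among all called genes to 65.6%, in place of 51.2%, with 30 members lower. In 31 members the sh-SRSF3 libraries lay below those of sh-TDP43 without overlap, against 43.0% of all genes. IFIT3 had the largest difference, at 107 and 105 CPM in sh-SRSF3, against 679 and 1023 CPM in sh-TDP43 (-3.0, SE 0.22, edgeR adjusted p = 3.78e-08). RSAD2 followed, at 4.0 and 5.76 CPM in sh-SRSF3, against 26.5 and 49.8 CPM in sh-TDP43 (-2.96, SE 0.32, edgeR adjusted p = 2.05e-06).

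IRF7, IRF9, USP18, TAP1, B2M and HLA-C were not called between the knockdowns. IRF7 was nearly equal, at 13.6 and 15.3 CPM in sh-SRSF3, against 12.3 and 16.6 CPM in sh-TDP43 (0.00, SE 0.18). USP18 was at 2.88 and 3.49 CPM in sh-SRSF3, against 2.63 and 4.57 CPM in sh-TDP43 (-0.18, SE 0.31). HLA-C was at 227 and 260.4 CPM in sh-SRSF3, against 179 and 221 CPM in sh-TDP43 (0.29, SE 0.13, edgeR adjusted p = 0.0574). HLA-C is the member with the higher values in sh-SRSF3 and no overlap. Of the 29 calls, 24 held under all 11 alternatives; DDX58 (-0.33), IFIT2 (-0.50), IFI27 (-0.61), IFI44L (-1.26) and HERC5 (-0.20) were lost without sh-TDP43 replicate 2, which also gave -2.01 for OAS1, against -2.75 with all libraries.

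Members with and without the promoter letters fell. Of 17 members with ISRE letters, 16 were lower in sh-SRSF3, with a median log2 change of -1.64. Of 11 matched members without them 9 were lower, with a median of -1.56, where 34.4% of all genes were lower. The exception with the letters was B2M, whose promoter is shown above. In sh-TDP43, 3 of 17 members with the letters were lower and 1 was higher, against 5 of 11 lower and 1 higher among those without. All genes had 24.1% lower and 20.7% higher there, and the difference by letters was not tested. HERC6, UBE2L6 and CMPK2 fell in sh-SRSF3 and have no ISRE match in this window, which says only that these letters are not in it.

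Genes around the set were taken from lists of the same pathway. The lists were chosen with earlier results of these data known, so their counts are a description and no independent test of the set. Of 38 other interferon-induced genes, 33 were lower and 1 was higher in sh-SRSF3, where 34.4% of all genes were lower and 32.5% higher. In sh-TDP43, 10 of the 38 were lower and 2 higher, and the share lower is near the 24.1% of all genes. XAF1, an apoptosis factor, changed by -4.02 in sh-SRSF3 and the RNA helicase gene DDX60 by -3.89. DDX60 was at 12.4 and 19.2 CPM in sh-SRSF3 and 317 and 433 CPM in sh-TDP43, against 167 and 302 CPM in sh-control, and was called higher in sh-TDP43 (0.68, SE 0.23). CXCL11, a chemokine, changed by -3.36 in sh-SRSF3, and RTP4, a membrane protein chaperone, by -3.92. Several of these values move with single libraries. XAF1 was at -3.19 without sh-control replicate 2, and RTP4 at -3.29 without sh-SRSF3 replicate 1 and -5.16 without sh-SRSF3 replicate 2. CXCL11 was at -2.51 without sh-SRSF3 replicate 1, -6.14 without sh-SRSF3 replicate 2, -4.02 without sh-control replicate 1 and -2.14 without sh-control replicate 2. In sh-TDP43 the guanylate-binding protein genes GBP1 (-1.12) and GBP2 (-0.91), the chemokine gene CXCL10 (-1.99) and HELZ2 (-0.88) had the largest changes. CXCL10 was at 0.217 and 0.749 CPM in sh-TDP43, against 0.592 and 3.26 CPM in sh-control, so the groups overlap. Its call was lost without sh-control replicate 2 (-0.30), without sh-TDP43 replicate 1 (-1.37) and with upper-quartile scaling (-1.90), while its value was -2.75 without sh-control replicate 1 and -3.13 without sh-TDP43 replicate 2.

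Sensors and adaptors outside the set moved in both directions. In sh-SRSF3, 6 of 10 tested genes of nucleic acid sensing were lower, against 34.4% of all genes, and 3 were higher, against 32.5%. DHX58, a regulator of the RIG-I family, was at 1.98 and 2.02 CPM in sh-SRSF3, against 25.5 and 42.1 CPM in sh-control (-4.08, SE 0.27, edgeR adjusted p = 1.35e-08). The DNA sensor gene AIM2 changed by -3.38, the receptor gene TLR3 by -3.13 and TRIM25, a ubiquitin ligase that acts on RIG-I, by -2.55. In sh-TDP43, 3 of these 10 genes were lower, against 24.1% of all genes, and 4 higher, against 20.7%, with TRIM25 (-1.07) and the adaptor gene MAVS (-0.99) among the lower and TMEM173, which encodes STING, (0.77) and TICAM1 (0.76) among the higher.

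Of 14 genes of interferon receptors and signalling, 6 were lower and 5 were higher in sh-SRSF3, near the 34.4% lower and 32.5% higher of all genes. In sh-TDP43, 6 of the 14 were lower and 1 was higher, where all genes had 24.1% and 20.7%. SOCS1, a feedback inhibitor of JAK kinases, was at 0.12 and 0.139 CPM in sh-SRSF3 and 0.380 and 0.187 CPM in sh-TDP43, against 1.83 and 2.58 CPM in sh-control (-4.05, SE 0.57, and -2.95, SE 0.50). Without sh-TDP43 replicate 1 its change in sh-TDP43 was -3.54. The interferon lambda receptor gene IFNLR1 (-1.81), the phosphatase gene PTPN6 (-1.80) and JAK2 (-1.31) also fell in sh-SRSF3. Of 8 interferon genes only IFNL1 passed the filter on low counts, at 0.0601 and 0.111 CPM in sh-SRSF3, against 0.0807 and 1.10 CPM in sh-control, so its call (-2.73, edgeR adjusted p = 0.0393) rests on 1 control library, and its value was 0.09 without it.

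In antigen presentation, 15 of 23 other genes were lower and 4 higher in sh-SRSF3, where 34.4% of all genes were lower and 32.5% higher. In sh-TDP43, 11 of the 23 were lower and 1 higher, where all genes had 24.1% and 20.7%. The transactivators of MHC genes both fell in sh-SRSF3, CIITA (log2 change -4.04) and NLRC5 (-1.98), and both fell in sh-TDP43, CIITA (-0.97) and NLRC5 (-0.72). PSMB5, PSMB6 and PSMB7, the catalytic subunits that the immunoproteasome replaces, were not called in sh-SRSF3 (-0.21 to 0.01), and in sh-TDP43 PSMB5 was higher (0.37, SE 0.09).

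RIP asked which of these RNAs are recovered with each protein. Values are FPKM, fragments scaled to gene length and library size, and the recovery is log2((RIP + 1)/(input + 1)) for genes at 1 FPKM or more in the RIP or its input. With 1 library per arm no test is possible, so a 2-fold difference serves as a description. A precipitation from cells without a tagged protein was not analysed here. Flag-TDP43 recovered RNA of its own gene at 80.4 FPKM in the RIP and 14.2 FPKM in its input, and Flag-SRSF3 recovered SRSF3 RNA at 91.3 FPKM in the RIP and 54.9 FPKM in its input, where the overexpressed transcript may add to the native one. SRSF3 RNA was also higher in the Flag-TDP43 RIP, at 83.4 FPKM against 29.3 FPKM in its input. TARDBP RNA was at 1.48 FPKM in the Flag-SRSF3 RIP and 1.76 FPKM in its input.

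With Flag-TDP43 the set was split. Of 31 members kept, 5 were at least 2-fold higher in the RIP, against 15.9% of 10647 genes kept, and 7 were at least 2-fold lower, against 13.1%. The members' median recovery was -0.07 and that of all genes 0.03. UBE2L6 was at 79.2 FPKM in the RIP and 14.2 FPKM in the input (2.4), and IFIT1 at 56.8 and 16.2 FPKM (1.75). HLA-C, on which the deposited tables disagree, is described with the second table. HERC5 was at 13.8 FPKM in the RIP and 4.07 FPKM in the input (1.55), and OAS3 at 5.66 and 2.13 FPKM (1.09). IFI6 stood at the other end, at 1.34 FPKM in the RIP and 15.6 FPKM in the input (-2.82). ISG15, the most abundant member RNA, was at 145 FPKM in the RIP and 394 FPKM in the input (-1.44). All 4 transcription factor RNAs were lower in the RIP, IRF9 (-1.36), IRF7 (-1.21), STAT2 (-1.10) and IRF1 (-0.31).

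With Flag-SRSF3 few members stood out. Of 29 kept, 2 were at least 2-fold higher in the RIP, against 14.7% of 10693 genes, and 2 were at least 2-fold lower, against 6.82%. The median recovery was 0.09 for members and 0.18 for all genes. IRF7 was at 6.40 FPKM in the RIP and 1.21 FPKM in the input (1.74). PSMB8 was at 11.1 FPKM in the RIP and 28.4 FPKM in the input (-1.28), and ISG15 at 117 and 260.5 FPKM (-1.15). IFIH1, at 1.68 FPKM in the RIP and 0.0743 FPKM in the input (1.32), rests on a nearly empty input. The oligoadenylate synthetases, the family with the lowest median change in sh-SRSF3, had recoveries of -0.48 for OAS2, 0.32 for OAS3 and 0.87 for OASL, all under 2-fold, and OAS1 was under 1 FPKM in both libraries.

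Side by side, Flag-TDP43 recovered 17 of 32 members more than Flag-SRSF3 did, against 5342 of 11530 genes kept. The median difference was 0.07 for members and -0.12 for all genes. In the second table the count was 15 of 32 members, with a median of -0.25. IFIT1 (1.75 with Flag-TDP43 and -0.67 with Flag-SRSF3), IFIT2 (1.00 and -0.80) and DDX58 (0.72 and -0.57) were higher in the Flag-TDP43 RIP and lower in the Flag-SRSF3 RIP. IFI6 (-2.82 and 0.84), IRF7 (-1.21 and 1.74) and OASL (-1.05 and 0.87) showed the reverse. ISG15 was lower in both. RSAD2, the member with the largest rise in sh-TDP43, was at 1.73 FPKM in the Flag-TDP43 RIP and 1.29 FPKM in the input (0.25). The inputs themselves differed. In the Flag-TDP43 input 25 of 32 members were higher than in the Flag-SRSF3 input, against 5890 of 11530 genes. The median difference between the inputs was 0.22 for members and 0.01 for all genes.

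A second deposited table of the same libraries, with a normalised signal of unstated unit, gave the same sign for 26 of 31 members with Flag-TDP43 and for 26 of 29 with Flag-SRSF3. In both tables UBE2L6 and IFIT1 were at least 2-fold higher with Flag-TDP43, and IRF7, IRF9, OASL, IFI6, IFI35 and ISG15 at least 2-fold lower. With Flag-SRSF3, IRF7 was at least 2-fold higher and ISG15 and PSMB8 at least 2-fold lower in both. The tables disagreed on HLA-C with Flag-TDP43. Its recovery was 3.48 from 16.2 FPKM in the RIP and 0.544 FPKM in the input, and -0.76 from a signal of 38.6 in the RIP and 65.8 in the input. IFI27 likewise had 0.58 in FPKM and -1.18 in signal. B2M, at 17.3 FPKM in the RIP and 19.7 FPKM in the input, had a signal of 474 and 508, with recoveries of -0.18 and -0.10. With Flag-SRSF3, B2M was at 78.1 FPKM in the RIP and 128 FPKM in the input (-0.71), and at a signal of 64.5 in the RIP and 263 in the input (-2.01), so its recovery there depends on the table. SRSF3 RNA with Flag-TDP43 had a signal of 186 in the RIP and 137 in the input, a smaller difference than in FPKM. TARDBP RNA with Flag-SRSF3 had a signal of 4.80 in the RIP and 14.8 in the input, where the FPKM values were close. Each protein's own RNA was higher in the RIP in both tables.

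**Figure D5:**
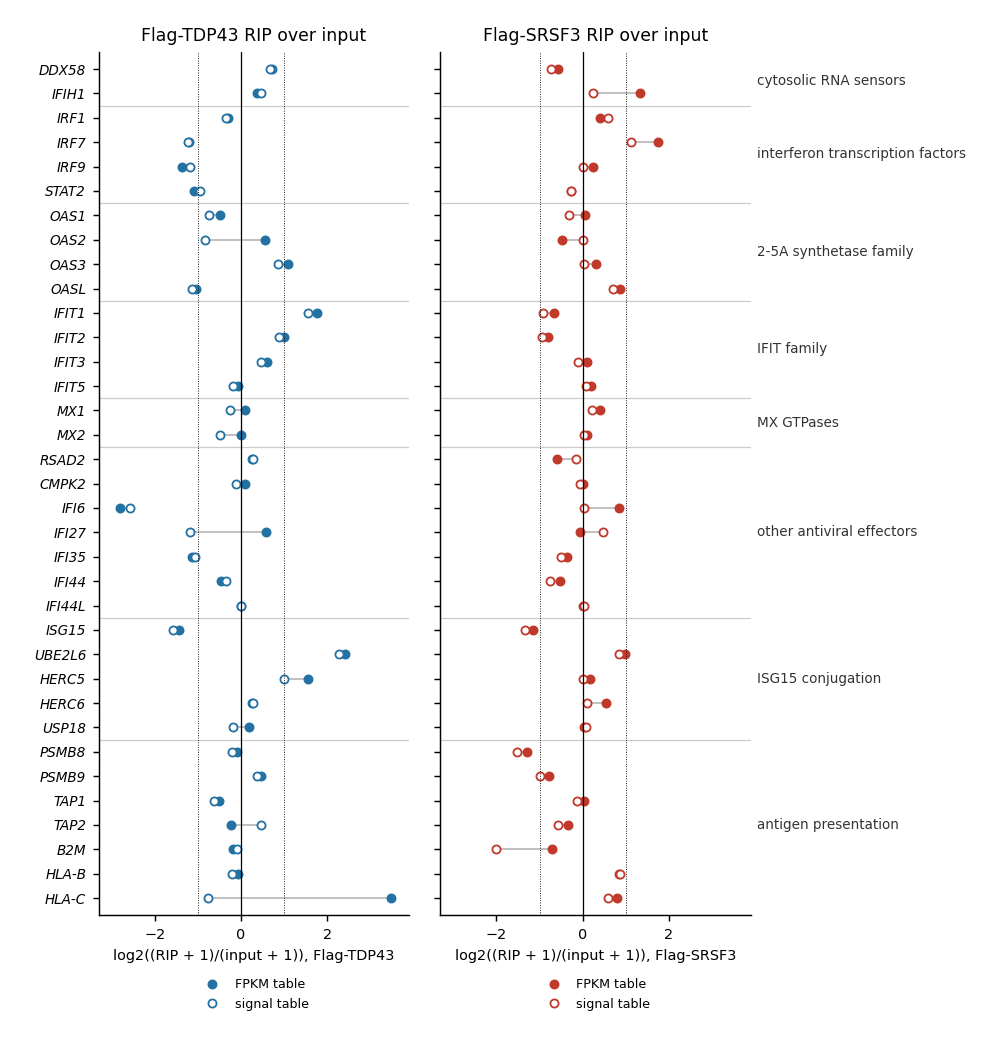
Recovery of each gene, log2((RIP + 1)/(input + 1)), with Flag-TDP43 (left) and Flag-SRSF3 (right), from the FPKM table (filled) and the signal table (open); dotted lines mark 2-fold and genes under 1 FPKM are drawn too. With Flag-TDP43, IFI6 (-2.82) is the lowest in both tables, UBE2L6 (2.4 in FPKM) is high in both, and the long line of HLA-C (3.48 and -0.76) shows where the tables disagree.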

How the data were processed

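RNA-seq of MDA-MB231 with stable hairpins (2 libraries each) and RIP with inputs (1 each) were used. The members and gene lists were chosen with earlier results of these data known. The hairpin table, as deposited, gives raw counts of reads over exons made by featureCounts 1.4.6-p5 without a strand option, per its header, on GRCh37. Per the submitters' processing notes, STAR 2.5.2a, HISAT2 2.0.5, StringTie 1.3.0 and Cufflinks were used, with no roles given. One RIP table carries FPKM with the authors' log2 fold changes, per the file headers, and a second one, also deposited, carries a normalised signal of unstated scale. Columns matching no label numbered 2 and were not used. Gene names came from the files for 27068 of 27745 genes and from a reference table for 89.

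The test on counts was that of edgeR 4.0.16, run in R 4.3.3 (TMM, filterByExpr, two-sided quasi-likelihood F-test, all 6 libraries in one fit, 3 residual degrees of freedom), which was tested on simulated data, with Benjamini-Hochberg adjustment over 15026 genes. No group held a repeated library, since the chi-square per gene between its libraries was 11.3 in sh-SRSF3, 12.2 in sh-TDP43 and 23.1 in sh-control. RIP values were compared as log2 with a pseudocount of 1 at a minimum of 1 FPKM. RIP depth, inferred from the commonest lowest step of FPKM times gene length, was about 27700000 reads for both RIPs, 28400000 for the Flag-TDP43 input and 28200000 for the Flag-SRSF3 input. Genes outside the set are the up to 4 called genes with the largest change per list; NLRC5 and DDX60 in sh-TDP43 and the PSMB genes in sh-SRSF3 were named after their values were seen, and some genes of the lists are counted but not reported here by name. Alternatives were DESeq2 1.42.0, upper-quartile and RLE scaling, no filter, a replicate block, each library left out, and for RIP another pseudocount, other filters and the deposited fold changes; the second table was added after seeing the data.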

Additional observations from a re-analysis of the deposited data

How the results depend on the processing

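Counts of members stayed within 1.5 times of those reported, and no change of sign touched a call, apart from what follows. Leaving out 1 library at a time gave 28 to 33 members lower and 0 to 0 higher in sh-SRSF3 against sh-control, 6 to 19 lower and 1 to 7 higher in sh-TDP43 against sh-control, and 24 to 30 lower and 0 to 1 higher in sh-SRSF3 against sh-TDP43. Leaving out 1 library gave OAS1 values in sh-TDP43 from -1.07 without sh-TDP43 replicate 2 to 1.10 without sh-control replicate 2 (-0.32 with all libraries). IFNL1 in sh-SRSF3 ranged from -3.62 without sh-control replicate 1 to 0.09 without sh-control replicate 2 (-2.73 with all libraries). In sh-SRSF3 against sh-TDP43, 1 member, HLA-C, was higher under DESeq2, with no filter, with the replicate block and without sh-SRSF3 replicate 1, sh-TDP43 replicate 2 or either sh-control replicate; DESeq2 gave 30, 9 and 25 members lower in the 3 comparisons and no filter 32, 17 and 30. Over all 15026 genes tested, the differences between replicates were only weakly correlated across groups (0.09, 0.08 and 0.12). Among the 35 members, however, replicate 1 was lower for 30 in sh-SRSF3, 33 in sh-TDP43 and 34 in sh-control. Pairing by replicate number is therefore not settled for the members. The replicate block gave 32 members lower in sh-SRSF3 and 30 lower between the knockdowns. In sh-TDP43 it gave 16 lower and 3 higher, with IFIH1, OAS2, OASL and IFI44 gained as lower and IFIT1 as higher. Upper-quartile scaling put the median of all genes at -0.19 in sh-SRSF3, 0.09 in sh-TDP43 and -0.29 between them. In the Flag-TDP43 RIP, a minimum of 5 left 4 members at least 2-fold lower, and the second table had 2 at least 2-fold higher, with IFI27 at -1.18 and HLA-C at -0.76. In the Flag-SRSF3 RIP, 3484 genes passed 2-fold with a pseudocount of 0.1 and 3636 in the authors' deposited table (2303 as reported), with 4 members higher in each; 1 member was higher at a minimum of 5 and 1 in the second table. The cause of these shifts was not tested. With 2 libraries a group, changes well under 2-fold in the members that vary most were not detectable.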
